A study of Mus musculus with 31 samples.

Results

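*Upf3b* and *Upf3a* are the 2 mouse paralogs of the UPF3 family, and their rows were taken by symbol from the liver value tables of all 31 mice, 2 of the 31172 gene symbols used. The mice were *hFIX-R29X* animals, which carry a human factor IX minigene with a nonsense mutation in place of the mouse gene, aged 8 to 14 weeks. They were given DPBS, a buffered saline, in 11 mice (6 female, 5 male), Control-GalNAc-ASO at 15 mg/kg in 4 mice (2 female, 2 male) or at 20 mg/kg in 6 (3 female, 3 male), or *Upf3b*-GalNAc-ASO at 10 mg/kg in 5 mice (2 female, 3 male) or at 20 mg/kg in 5 (2 female, 3 male). All received 6 subcutaneous doses spaced 5 days apart and were sacrificed 48 h after the last, so the doses of *Upf3b*-GalNAc-ASO and of its control match only at 20 mg/kg. The Control-GalNAc-ASO is a scrambled oligonucleotide, and the labels give one library per mouse. The sugar GalNAc directs an ASO to hepatocytes through the asialoglycoprotein receptor, and the measured RNA is that of whole liver. In bulk liver, fewer cells of a type and less RNA per cell cannot be told apart.

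Nonsense-mediated mRNA decay (NMD) removes transcripts on which ribosomes stop too early. UPF3B bridges the exon junction complex, left on the mRNA by splicing, and UPF2, which in turn binds the helicase UPF1. UPF3A binds UPF2 as well, is a weaker NMD activator and has been described both as a stand-in for UPF3B when UPF3B is lost and as an NMD repressor. *Upf3b* lies on the X chromosome and *Upf3a* on an autosome. An ASO with a central stretch of DNA recruits RNase H1, which cuts the RNA strand of the duplex.

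The sequences below show which of the paralogs the *Upf3b*-GalNAc-ASO matches. In the ASO the capitals mark the central 10 bases of DNA, flanked by 3 modified bases on each side. In the *Upf3b* site they mark the bases opposite that gap, and in the context line they mark the whole site. In the *Upf3a* line they mark the bases that differ from the site.
*Upf3b*-GalNAc-ASO: ggaTATAGATGTAacg
*Upf3b* site: cgtTACATCTATAtcc
*Upf3b* site with context: atagtcaCGTTACATCTATATCCtgtgtct
Closest stretch in the main *Upf3a* transcript: TTtGacGGctatatcT

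The site lies at chrX:37091973-37091988 on the minus strand of GRCm38, in exon 10, the last exon of the 2344-base transcript Upf3b-201, where it is untranslated and starts 526 bases after the coding sequence. It ends 295 bases before the end of the transcript. The main *Upf3a* transcript, Upf3a-201, has 9 exons and 2057 bases (gene at 8:13785615-13799193, plus strand), and its closest stretch has 6 mismatches to the site. The other annotated *Upf3a* transcripts have 5 mismatches at best. Upf3b-202 and Upf3b-203, which end upstream, lack the site and have 7 and 6 mismatches. Aligned over 1167 base pairs of coding sequence, the paralogs were 65.8% identical. No 31-base stretch of Upf3b-201 occurred in a transcript of another gene, whereas the last 500 bases of Upf3a-201, where libraries made from 3′ ends place their reads, share such stretches with 1040 other genes. Values of *Upf3a* are therefore uncertain where reads were divided among such transcripts. They corresponded to whole reads in 31 of 31 mice, within 0.02 of a read, and so gave no sign of such a division. Values of *Upf3b* did so in 0 of 31 mice. They are fractional estimates, so the residual levels of *Upf3b* and the slopes on them are uncertain too. The source of the fractions was not tested.

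Values are TPM that were not divided by transcript length, so levels are compared between mice and groups and not between the paralogs. The reads of a mouse, estimated from its TPM values, were between 1020676 and 7391615 (median 3627941). The paper gives a higher average sequencing depth. The value of 3 reads, used as a floor for counting error only, was 0.406 to 2.94 TPM. *Upf3b* rested on 5.58 to 917 estimated reads per mouse and *Upf3a* on 0 to 108. Replicate 3 of the *Upf3b*-GalNAc-ASO group at 10 mg/kg stood apart, at 1020676 reads, with a median correlation of 0.677 to the other mice of its group. Replicates 5 and 6 of the DPBS group were at 0.792 and 0.724, and replicate 7 was at 0.777. The other mice were at 0.794 to 0.897. The 6 hepatocyte markers (*Alb*, *Apoa1*, *Ttr*, *Cps1*, *Asgr1*, *Asgr2*) were above 0 in every mouse and summed to 13042 to 35340 TPM.

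*Upf3b* was lower in *Upf3b*-GalNAc-ASO treated mice, and it passed the test against Control-GalNAc-ASO at 20 mg/kg but not at 10 mg/kg. At 20 mg/kg the 5 mice (replicates 1, 2, 4, 5 and 6) had 9.37, 2.68, 2.57, 16.7 and 7.68 TPM, an average of 7.80 ± 5.82 TPM (SD, n = 5). The Control-GalNAc-ASO mice at that dose had 85.3 to 135 TPM (median 113), an average of 111 ± 21.8 TPM (SD, n = 6). The groups did not overlap, and 7.04% of the control mean was left. *Upf3b* fell by 3.87 on the log2 scale of TPM + 1 (standard error 0.40, adjusted p = 1.59e-05 from limma; exact permutation test, two-sided, p = 0.00433, adjusted p = 0.0202 over 14 such tests). It had the second smallest p-value of the 9376 genes tested. Of all genes tested, 2.52% passed an adjusted p under 0.05 in either direction, 1.59% passed downwards, and 1.82% lay wholly below the controls.

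At 10 mg/kg the *Upf3b* values were 5.97, 20.7, 53.7, 3.95 and 23.3 TPM, an average of 21.5 ± 20.0 TPM (SD, n = 5). Control-GalNAc-ASO mice at 15 mg/kg had 66.9, 27.1, 58.5 and 78.7 TPM, an average of 57.8 ± 22.1 TPM (SD, n = 4). 4 of the 5 treated mice lay below every control, and replicate 3 lay among them. The mean left was 37.3%. The log2 fold change of -1.73 (standard error 0.61) did not pass the adjustment over 9166 genes (adjusted p = 0.211 from limma), of which 0.295% passed, nor did the exact permutation test after adjustment (two-sided, p = 0.0317, adjusted p = 0.111). Without replicate 3 the log2 fold change was -2.22, the lowest of 9 values with 1 mouse left out, which reached up to -1.16 and had adjusted p-values between 0.0597 and 0.501. Over both doses, with dose level and sex in the model, *Upf3b* fell by 2.91 (standard error 0.41, adjusted p = 7.29e-05 from limma, where 6.04% of 9797 genes passed).

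Set against the 11 DPBS-treated mice, *Upf3b* fell at both doses. DPBS-treated mice had 33.8 to 136 TPM (median 104), an average of 97.3 ± 33.2 TPM (SD, n = 11), with replicates 5 and 6 the lowest at 33.8 and 43.6 TPM. The log2 fold changes were -2.57 (standard error 0.45, adjusted p = 0.00455 from limma) at 10 mg/kg and -3.68 (standard error 0.38, adjusted p = 3.21e-06) at 20 mg/kg, where 0.376% and 1.13% of genes passed. These left 22.1% and 8.02% of the DPBS mean. All 5 mice at 20 mg/kg lay below every DPBS-treated mouse, as 0.474% of genes did, and 4 of 5 did so at 10 mg/kg.

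**Figure D1:**
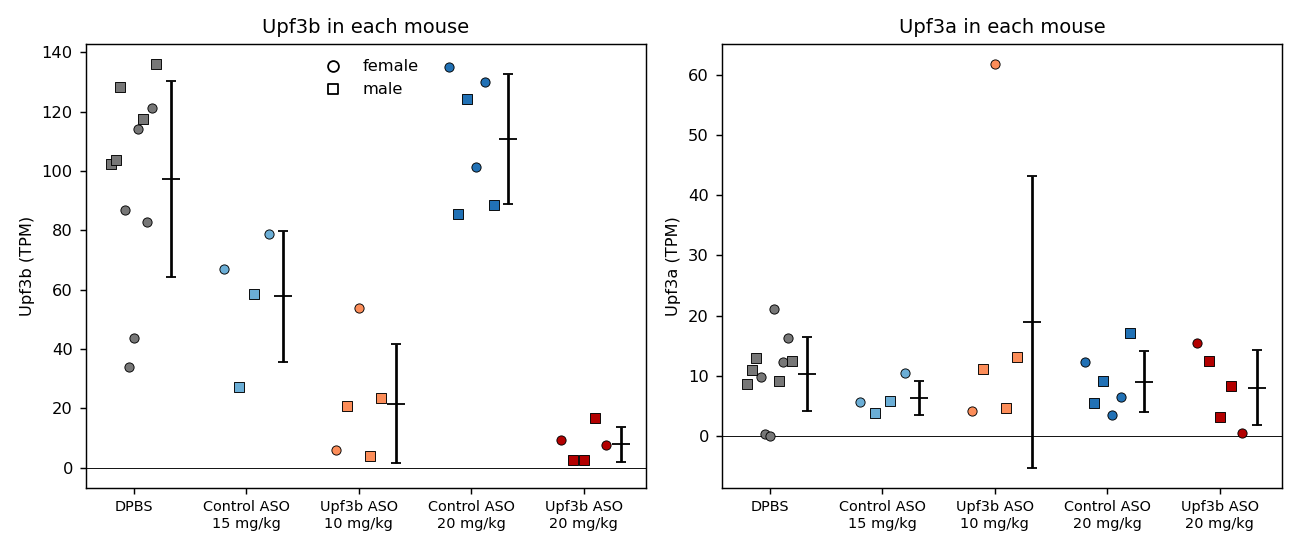
*Upf3b* (left) and *Upf3a* (right) in TPM in each of the 31 mice by group, circles for females and squares for males, with the mean and SD of each group beside the points. *Upf3b* at 20 mg/kg of *Upf3b*-GalNAc-ASO lies between 2.57 and 16.7 TPM, below every control mouse, whereas the *Upf3a* points of the groups overlap, with a single mouse at 61.7 TPM.

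From highest to lowest mean the order of *Upf3b* was Control-GalNAc-ASO at 20 mg/kg, DPBS, Control-GalNAc-ASO at 15 mg/kg, *Upf3b*-GalNAc-ASO at 10 mg/kg and at 20 mg/kg. No pair of neighbours in this order was separated by an adjusted p under 0.05 in either test. Control-GalNAc-ASO at 20 mg/kg and DPBS differed by a log2 fold change of 0.25 (95% confidence interval -0.28 to 0.79), and Control-GalNAc-ASO at 15 mg/kg and DPBS by -0.75 (-1.47 to -0.03, adjusted p = 0.691 from limma). No gene passed in either of these comparisons (0 genes, 0% of those tested, with 905 and 644 genes at an unadjusted p under 0.05). The 2 doses of *Upf3b*-GalNAc-ASO differed by -1.11 (95% confidence interval -2.57 to 0.34, adjusted p = 0.891), where 0 genes passed and 464 had an unadjusted p under 0.05.

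The control groups themselves were unlike in *Upf3b*. The 4 mice at 15 mg/kg lay below all 6 at 20 mg/kg, with a mean 52.1% of theirs (exact permutation test, two-sided, p = 0.00952), and 1.28% of 9222 genes did the same. This pair was compared after the values had been seen. The difference between the log2 fold changes at the high and the low dose, each against its own control, was -2.12 (standard error 0.72, p = 0.00646, adjusted p = 0.455 from limma), which combines the lower value of the treated mice at 20 mg/kg with the higher value of their controls. An unadjusted p under 0.05 was reached by 799 of 9797 genes in that comparison and an adjusted one by 0.

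Among the mice without *Upf3b*-GalNAc-ASO, the 10 males and 11 females differed in *Upf3b* by 0.10 on the log2 scale, higher in males (95% confidence interval -0.39 to 0.59), and in *Upf3a* by 0.46 (-0.52 to 1.44). Neither passed the test, which 2.45% of genes did. Over both doses, *Upf3b* left in *Upf3b*-GalNAc-ASO treated mice was 18.7% of the Control-GalNAc-ASO mean in females and 15.2% in males.

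*Upf3a* did not pass the test in any comparison between groups. At 20 mg/kg of *Upf3b*-GalNAc-ASO, where *Upf3b* was lowest, *Upf3a* was 15.5, 12.5, 3.22, 8.30 and 0.616 TPM, an average of 8.03 ± 6.21 TPM (SD, n = 5). Their controls had 3.56 to 17.2 TPM (median 7.88), an average of 9.07 ± 5.03 TPM (SD, n = 6). The groups overlapped in part: 3 treated mice lay within the range of the controls and 2 below it, the lowest on 3 reads. The log2 fold change was -0.48 (standard error 0.62, 95% confidence interval -1.77 to 0.81, adjusted p = 0.719 from limma). It turned to 0.10 without replicate 6.

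At 10 mg/kg the *Upf3a* values were 4.22, 11.2, 61.7, 4.78 and 13.1 TPM, an average of 19.0 ± 24.2 TPM (SD, n = 5), against 5.63, 3.81, 5.79 and 10.4 TPM in Control-GalNAc-ASO mice at 15 mg/kg (6.42 ± 2.82 TPM, SD, n = 4). Replicate 3 alone lay far above the rest, on 63 reads. Of the other 4 mice, 2 were higher than all controls and 2 were within their range. The log2 fold change of 0.92 (standard error 0.67, 95% confidence interval -0.52 to 2.35, adjusted p = 0.516 from limma) was 0.25 without replicate 3 and 1.53 without replicate 1 (adjusted p = 0.129), the extremes with 1 mouse left out. DPBS-treated mice had 0 to 21.1 TPM (median 11.1), an average of 10.4 ± 6.15 TPM (SD, n = 11), and replicates 5 and 6 had 1 and 0 reads. With the floor of 3 reads, the 0 of replicate 6 allows up to 2.51 TPM.

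Over both doses the log2 fold change of *Upf3a* was 0.15 (standard error 0.48, adjusted p = 0.894 from limma). Its 95% confidence interval of -0.84 to 1.13 runs from 56% to 219% of the control level, so changes within that range, in either direction, are not excluded. Without replicate 3 at 10 mg/kg the log2 fold change was -0.19. The exact permutation tests of *Upf3a* in the 7 pairs of groups gave p-values between 0.236 and 0.762 (two-sided). In order of their means the groups were *Upf3b*-GalNAc-ASO at 10 mg/kg, DPBS, Control-GalNAc-ASO at 20 mg/kg, *Upf3b*-GalNAc-ASO at 20 mg/kg and Control-GalNAc-ASO at 15 mg/kg, and the values of every neighbouring pair overlapped.

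**Figure D2:**
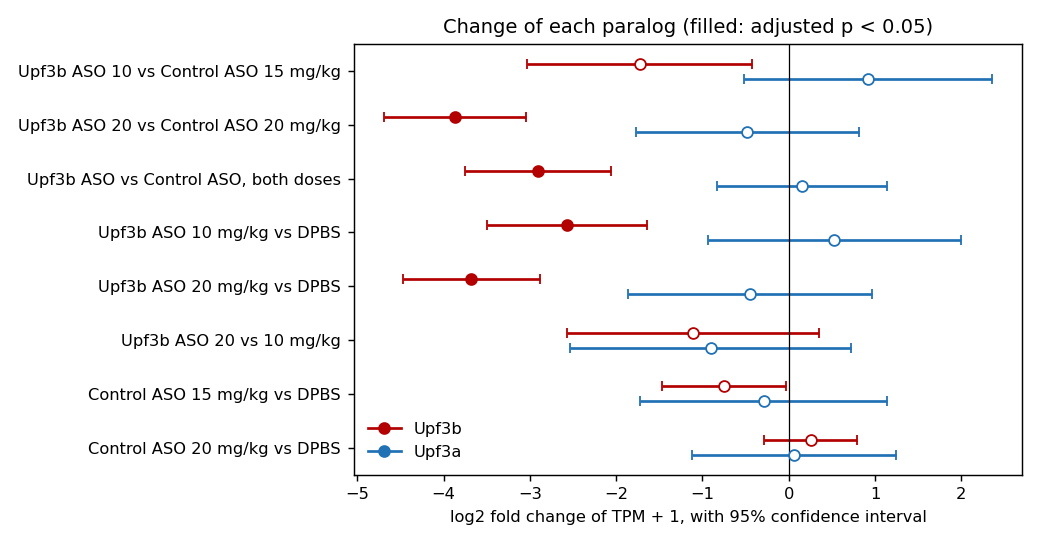
Log2 fold change of TPM + 1 of *Upf3b* (red) and *Upf3a* (blue) in 8 comparisons, with 95% confidence intervals, where filled points have an adjusted p under 0.05 (limma, sex as a covariate). The *Upf3b* intervals of 4 of the 5 comparisons of *Upf3b*-GalNAc-ASO with a control are filled and lie below 0, and every *Upf3a* interval includes 0.

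The balance of the paralogs moved towards *Upf3a*. The log2 ratio of *Upf3a* to *Upf3b*, each with 1 TPM added, averaged -3.42 ± 0.90 (SD, n = 11) in DPBS-treated mice, -2.96 ± 0.36 (SD, n = 4) with Control-GalNAc-ASO at 15 mg/kg and -3.60 ± 0.75 (SD, n = 6) at 20 mg/kg. It averaged -0.32 ± 0.51 (SD, n = 5) with *Upf3b*-GalNAc-ASO at 10 mg/kg and -0.11 ± 1.64 (SD, n = 5) at 20 mg/kg. At 10 mg/kg all 5 mice lay above all controls (difference 2.64, exact permutation test, two-sided, p = 0.0159, adjusted p = 0.0278 over 7 tests). At 20 mg/kg 4 of 5 did (difference 3.49, exact permutation test, p = 0.00866, adjusted p = 0.0202), and the exception was replicate 6, with 3 reads of *Upf3a*. The doses of *Upf3b*-GalNAc-ASO differed by 0.21 in this ratio (exact permutation test, p = 0.817). Since *Upf3b* is part of the ratio, this difference is not evidence on *Upf3a*.

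Mouse by mouse, *Upf3a* tended to be lower, not higher, where less *Upf3b* was left, but 1 library carried much of this. In the 10 *Upf3b*-GalNAc-ASO treated mice, log2(TPM + 1) of *Upf3a* and *Upf3b* correlated positively, with Pearson's r = 0.64 (p = 0.0444, permutation test, adjusted p = 0.177 over 12 relations) and Spearman's rho = 0.62 (p = 0.0589, adjusted p = 0.235). The relation rests on the extreme mice. Without replicate 3 at 10 mg/kg and replicate 4 at 20 mg/kg, the farthest from the median of *Upf3b*, r was 0.28. With the dose level and sex in the model, the slope of *Upf3a* was 0.70 per doubling of *Upf3b* (standard error 0.33, adjusted p = 0.380 from limma), which did not pass the adjustment, and 0.36 without replicate 3.

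In the 21 mice without *Upf3b*-GalNAc-ASO the paralogs also went together, with r = 0.73 (p = 0.0025, permutation test, adjusted p = 0.0300) and rho = 0.61 (p = 0.00374, adjusted p = 0.0449), and with r = 0.68 without the 2 mice farthest from the median of *Upf3b*. The slope was 1.61 (standard error 0.34, adjusted p = 0.00311 from limma), and 9.87% of 9390 genes had a slope on *Upf3b* that passed. This too depended on a pair of mice. DPBS replicates 5 and 6, both with a median correlation under 0.8 with their group, were the lowest of all 31 in *Upf3a* and the lowest DPBS-treated mice in *Upf3b*. Replicate 7, below replicate 5 in that correlation (0.777), was kept and had the highest *Upf3a* of the DPBS group, 21.1 TPM. Replicates 5 and 6 were chosen after the data had been seen. Without replicates 5 and 6 the slope of *Upf3a* was 0.52 (standard error 0.47, adjusted p = 0.905), and within the DPBS group r went from 0.92 (n = 11) to 0.32. The Control-GalNAc-ASO group at 20 mg/kg gave r = 0.10 (n = 6, exact permutation test, p = 0.844), and 0.89 without the 2 mice farthest from its median of *Upf3b*. In these 21 mice the reads per mouse had r = 0.08 with *Upf3b* and 0.16 with *Upf3a*. In the 10 treated mice they had r = -0.53 with *Upf3b* (permutation test, adjusted p = 0.318) and -0.48 with *Upf3a* (adjusted p = 0.345). Without replicate 3 at 10 mg/kg and replicate 5 at 20 mg/kg these were 0.19 and 0.22. The part of RNA quality was not tested.

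**Figure D3:**
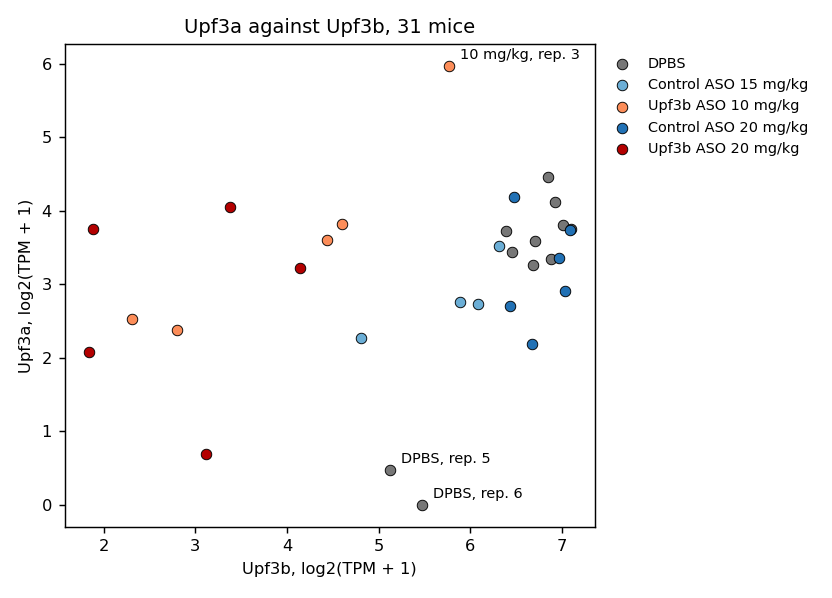
*Upf3a* against *Upf3b* in each of the 31 mice as log2(TPM + 1), coloured by group, with the 3 named mice labelled. The treated mice are shifted to the left with *Upf3a* mostly in the range of the other mice, and DPBS replicates 5 and 6 lie at the bottom with at most 0.390 TPM of *Upf3a*.

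The partners of UPF3B in the NMD pathway were examined next, in the comparison over both doses. Of 9 NMD core factors, 8 were tested and 2 rose, while 0 fell, against 2.4% of all genes that rose and 3.64% that fell. Their median log2 fold change was -0.31, and that of all genes was -0.06. *Smg9*, a regulator of the kinase SMG1, rose by 1.50 (standard error 0.30, adjusted p = 0.00229 from limma). It was 23.9 ± 9.15 TPM (SD, n = 5) at 10 mg/kg and 28.7 ± 9.94 TPM (SD, n = 5) at 20 mg/kg, against 6.36 ± 3.40 TPM (SD, n = 4) and 10.9 ± 2.48 TPM (SD, n = 6) in their controls, and 14.5 ± 4.57 TPM (SD, n = 11) with DPBS. Against DPBS its log2 fold changes were 0.61 and 0.90 (adjusted p = 0.636 and 0.227), so that the rise is measured against Control-GalNAc-ASO only. There it passed at neither dose alone (1.78, adjusted p = 0.128 from limma at 10 mg/kg and 1.28, adjusted p = 0.0757 at 20 mg/kg).

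*Upf2*, the direct partner of both paralogs, rose by 1.44 (standard error 0.32, adjusted p = 0.00797 from limma). At 10 mg/kg it was 163, 118, 681, 101 and 143 TPM, all above the 13.1 to 80.2 TPM of the controls (2.08% of genes were wholly above at this dose), and at 20 mg/kg it was 109, 66.4, 90.3, 159 and 188 TPM, overlapping the controls at 55.9 to 120 TPM. The highest value is again replicate 3, and without it the change was 1.19 and still passed (adjusted p = 0.00686). At 20 mg/kg alone the change of 0.66 did not pass (adjusted p = 0.257), nor did those against DPBS, 1.47 at 10 mg/kg (adjusted p = 0.351) and 0.78 at 20 mg/kg (adjusted p = 0.50). From mouse to mouse, *Upf2* tended to be lower, not higher, where *Upf3b* was lower. Its slope on *Upf3b* in the treated mice was 0.45 (adjusted p = 0.271 from limma), and 0.26 without replicate 3. In the mice without *Upf3b*-GalNAc-ASO the slope was 1.38 (adjusted p = 0.00011 from limma). It was 1.03 without DPBS replicates 5 and 6 and did not pass (adjusted p = 0.305). *Upf1*, the helicase at the centre of the pathway, had a log2 fold change of 1.51 with a wider error (standard error 0.57, adjusted p = 0.114), and *Dhx34* of -1.03 (standard error 0.54, adjusted p = 0.262). The log2 fold changes of *Smg1*, *Smg5*, *Smg6* and *Nbas* lay between -0.72 and -0.20 and did not pass. *Smg8* did not reach the TPM minimum.

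**Figure D4:**
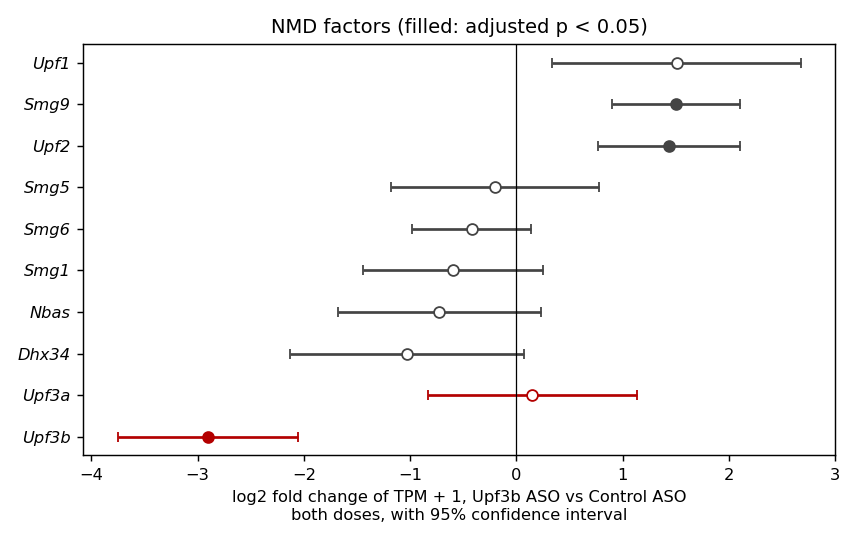
Log2 fold change of TPM + 1 between *Upf3b*-GalNAc-ASO and Control-GalNAc-ASO over both doses for *Upf3b*, *Upf3a* (red) and the 8 NMD core factors tested (grey), with 95% confidence intervals and filled points for an adjusted p under 0.05. *Upf3b* is at -2.91, *Upf3a* at 0.15, and *Smg9* and *Upf2* are the filled points above 0.

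Of the other groups of RNA surveillance genes, each to be read beside the 6.04% of all genes called and the 21.5% (2107 of 9797) with an unadjusted p under 0.05 in this comparison, the exon junction complex, which UPF3B contacts, had 0 of 8 genes called, and the log2 fold changes of the 4 that moved most were -0.48 for *Eif4a3*, -0.46 for *Magoh*, 0.36 for *Rnps1* and 0.36 for *Casc3*. By limma, 1 of the 8 had an unadjusted p under 0.05. The translation termination factors had 0 of 3 called, with *Etf1* (eRF1) at 0.38, *Pabpc1*, the cytoplasmic poly(A)-binding protein, at 0.37 and *Gspt1* (eRF3a) at 0.19, none with an unadjusted p under 0.05. Of 11 genes of mRNA decay tested, 0 were called and 3 had an unadjusted p under 0.05. The largest values were -1.52 (standard error 0.49, adjusted p = 0.0680) for the deadenylase subunit *Cnot8*, 0.84 for *Exosc10*, 0.75 for *Pnrc2* and -0.46 for *Edc4*. Of 12 endogenous NMD substrates, 7 were tested and 1 was called, upwards. By limma, 4 of the 7 had an unadjusted p under 0.05. The log2 fold changes of 4 were positive and those of 3 negative. *Atf4*, a stress transcription factor whose mRNA has upstream reading frames, rose by 0.63 (standard error 0.18, adjusted p = 0.0333), a call that was lost in 8 of 20 fits with 1 mouse left out. It passed at neither dose alone against Control-GalNAc-ASO (0.42, adjusted p = 0.460 at 10 mg/kg and 0.80, adjusted p = 0.0883 at 20 mg/kg) or against DPBS, where it averaged 336 ± 79.8 TPM (SD, n = 11) beside 334 ± 55.7 TPM (SD, n = 5) at 10 mg/kg and 553 ± 126 TPM (SD, n = 5) at 20 mg/kg. *Cdkn1a* was at 1.74 (adjusted p = 0.112), *Slc7a11* at 0.72 (adjusted p = 0.0882) and *Srsf3* at -0.52 (adjusted p = 0.275). *Gapdh*, the reference gene of the qPCR in the study, had a log2 fold change of 0.37 (adjusted p = 0.471).

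Genes that went with residual *Upf3b* were sought in the 10 *Upf3b*-GalNAc-ASO treated mice by the slope on log2(TPM + 1) of *Upf3b*, with dose level and sex in the model. Of 9186 genes tested, 4 had a slope with an adjusted p under 0.05 (0.0435%, all positive). They were *Fcf1*, which processes ribosomal RNA (slope 1.42, standard error 0.21, adjusted p = 0.0135 from limma), *Dnajc8*, a splicing-associated cochaperone (0.996, standard error 0.17, adjusted p = 0.0371), *Prpf4b*, a kinase of the spliceosome (0.85, standard error 0.15, adjusted p = 0.0371), and *Prkag3*, a regulatory subunit of AMP-activated kinase (1.19, standard error 0.21, adjusted p = 0.0371). *Fcf1* and *Dnajc8* were named after their values had been seen. The number of calls was 0 to 88 with 1 mouse left out in turn, and 0 without replicate 3 at 10 mg/kg.

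By likeness of pattern, the genes nearest to *Upf3b* over the 10 mice (partial correlation after dose level and sex, among 8553 genes) were *Prkag3* (0.98), *Prpf4b* (0.97), *Filip1l* (0.97), *Cenpc1*, a centromere protein (0.96), and the golgin *Gcc2* (0.96). The 5 lowest were *Rps13*, a ribosomal protein (-0.94), *Thyn1* (-0.94), *Cebpzos* (-0.94), *Ntan1* (-0.91) and *Thoc6* (-0.91). These genes were picked by this measure from many, so the values are a description. In all, 281 genes were above 0.8 and 101 below -0.8, and without replicate 3, 157 of the 281 were still above 0.8. *Upf3a* ranked 1125th, at 0.59, and at 0.36 without replicate 3.

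The same measure over the 21 mice without *Upf3b*-GalNAc-ASO (after group and sex, 8504 genes) put *Rbm25*, a splicing factor, first for *Upf3b* at 0.94, followed by *Prpf4b* (0.93), the centrin *Cetn3* (0.93), *Llph-ps2*, a pseudogene whose reads may be shared with its parent gene (0.92), and the deubiquitinase *Usp16* (0.92). No mouse is in both sets. *Rbm25* was at 0.89 over the 10 treated mice, *Cetn3* at 0.84, *Llph-ps2* at 0.81 and *Usp16* at 0.79. In the other direction, apart from *Prpf4b*, the genes nearest over the 10 treated mice were at lower values over the 21, with *Gcc2* at 0.77, *Cenpc1* at 0.74, *Prkag3* at 0.37 (rank 2092) and *Filip1l* at 0.34. The 5 lowest genes were between -0.18 and 0.37. Of the genes ranked in both sets, 88 were above 0.8 over the 21 mice and 270 over the 10, and 25 were above 0.8 in both, which is 28.4% of the first list and 9.26% of the second, while 3.35% of the 8057 genes ranked in both were above 0.8 over the 10 mice and 1.09% over the 21. Without DPBS replicates 5 and 6, 9 of all 90 genes above 0.8 over the 21 mice were still above it. For *Upf3a* the nearest were *Sltm* (0.92), the snoRNP protein *Nop56* (0.91), *Adap2* (0.90), the mitochondrial reductase *Decr1* (0.89) and *Ep400* (0.88). All 5 were at 0.52 to 0.64 without DPBS replicates 5 and 6.

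*Prpf4b* was second in likeness to *Upf3b* in both sets. In *Upf3b*-GalNAc-ASO treated mice at 10 mg/kg it was 150, 384, 912, 91.6 and 279 TPM, and at 20 mg/kg it was 152, 74.3, 58.0, 254 and 109 TPM. The mice kept nearly the order they had in *Upf3b* (Spearman's rho = 0.98 over the 10 mice). In the other mice *Prpf4b* was 40.1 to 307 TPM, lowest in Control-GalNAc-ASO replicate 2 at 15 mg/kg and in DPBS replicates 5 and 6, the same 3 mice that were lowest in *Upf3b*. Its slope in these 21 mice was 1.36 (standard error 0.15, adjusted p = 1.10e-06 from limma). Leaving out DPBS replicates 5 and 6 reduced the calls from 927 to 5 genes, of which *Prpf4b* was 1 (slope 1.27, standard error 0.25, adjusted p = 0.0393). The others were *Gm42927*, *Smc1a*, *Zrsr1* and *Llph-ps2*, named after their values had been seen apart from *Llph-ps2*. *Prpf4b* did not follow the treatment itself, with a log2 fold change of 0.18 between *Upf3b*-GalNAc-ASO and Control-GalNAc-ASO over both doses (adjusted p = 0.833).

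**Figure D5:**
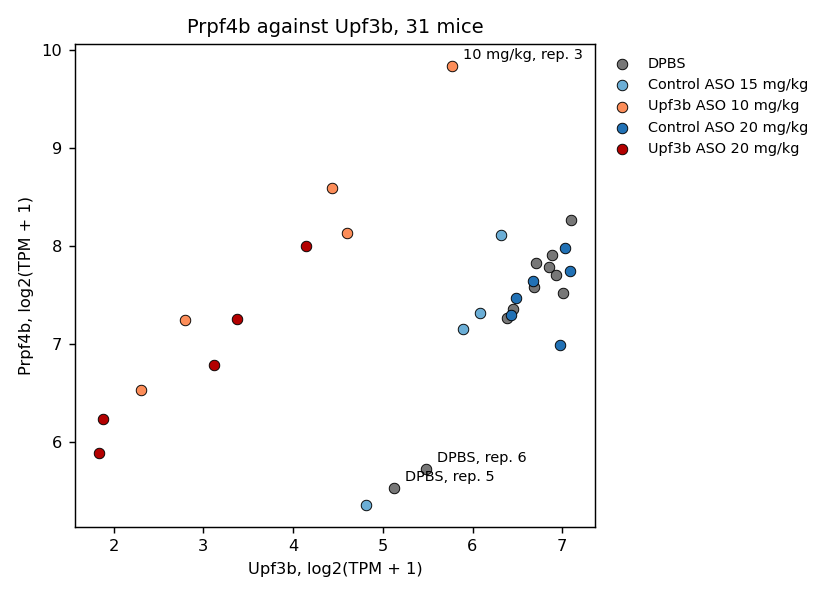
*Prpf4b* against *Upf3b* in each of the 31 mice as log2(TPM + 1), coloured by group, with 3 mice labelled. Within the treated mice and within the other mice the points run upwards, and the treated mice are shifted to the left at similar levels of *Prpf4b*.

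The summed markers of hepatocytes, Kupffer cells and sinusoidal endothelium were set against *Upf3b*, and none of these correlations passed the adjustment. The other marker lists were not correlated with it. Over the 21 mice, *Upf3b* and the summed hepatocyte markers had r = -0.47 (p = 0.0342, permutation test, adjusted p = 0.177), with the summed markers at 13042 to 35340 TPM. The 6 Kupffer cell markers, summing to 85.8 to 350.1 TPM, had r = 0.08, and the 6 sinusoidal endothelial markers, summing to 104 to 271 TPM, had r = -0.34 (p = 0.127, permutation test). Over the 10 treated mice, the r values were -0.23, -0.14 and 0.03, the last with rho = -0.31, and r = -0.64 without replicates 2 and 5 at 20 mg/kg. The part of cell composition in the shared variation was not tested further.

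Between *Upf3b*-GalNAc-ASO and Control-GalNAc-ASO over both doses, limma called 0 of the markers tested, which were 6 of hepatocytes, 5 of Kupffer cells, 6 of sinusoidal endothelium, 5 of stellate cells, 2 of cholangiocytes, 1 of lymphocytes and 4 of erythroid cells, where 6.04% of all genes were called and 21.5% had an unadjusted p under 0.05. An unadjusted p under 0.05 was reached by 1 marker each of the sinusoidal endothelial, stellate, cholangiocyte and erythroid lists and by 0 of the others.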

How the data were processed

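Liver RNA of 31 mice in 5 groups was sequenced, one library per mouse. The deposited values are TPM for each gene symbol, which the authors obtained with Salmon 0.7.2 (GRCm38.p4, per the submitters' processing notes). Per the labels the libraries were made from 3′ ends, whereas the paper names another kit. The dose entry of the labels says weekly, and the treatment protocol every 5 days. The step from transcripts to genes is not given in the sources used here. Of the values above 0, 70.2% to 81.6% per mouse came out as whole reads (tolerance 0.02 of a read), and 4% would by chance. This gave the estimate of the reads per mouse. Because the rest were not whole, no count model was used. Of 31198 symbols, 26 that had become dates were left out.

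A gene entered a test if its median reached 5 TPM in any group compared. limma 3.58.1 (R 4.3.3, trend and robust) was fitted to log2(TPM + 1) of the mice compared, adjusting for sex, and p-values were adjusted by Benjamini-Hochberg over all genes tested. On this scale changes of low genes are understated. Slopes were fitted on log2(TPM + 1) of *Upf3b* with group and sex, with *Upf3b* itself left out of the genes tested. Single values were tested by exact permutation over mice, and correlations with 100000 permutations (two-sided, Python 3.11.15, scipy 1.17.1). The limma fits were tested on simulated data. The labels do not name litters or cohorts, so p-values measure the spread between these mice. Positions, transcripts and ASO sites came from GENCODE M21 on GRCm38 with Biopython 1.88; introns were not searched. The members, the gene lists (NMD core factors, translation termination, exon junction complex, RNA decay, endogenous NMD substrates, *Gapdh*, cell type markers) and the rule for named genes were chosen with earlier results of these data known. A further NMD core factor is not reported here. The rule names listed genes with an adjusted p under 0.05 and up to 4 with the largest change per list over both doses, the 5 genes most and least like *Upf3b*, the 5 most like each paralog in the other mice, and the 2 nearest genes on each side. Alternatives were other pseudocounts, quantile normalisation, no filter, no sex covariate, all mice in 1 fit, a replicate block, reads as a covariate, ranks of *Upf3b* and single mice left out (DPBS-treated mice only in the slopes).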

Additional observations from a re-analysis of the deposited data

Results flagged for a closer look

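*Upf3a* in replicate 3 of the *Upf3b*-GalNAc-ASO group at 10 mg/kg, at 61.7 TPM, lay farther from the other mice of its group than the 95% limit of Dixon's test allows, with a gap of 0.845 of the whole range. Of the 8 groups tested in this way, 2 genes in 4 groups, about 1 in 20 passes this limit by chance. This library had the fewest reads and was also the highest of its group in *Upf3b*. The difference between the log2 fold changes of *Upf3b* at 20 and at 10 mg/kg, each against its own control, was -2.12, with an unadjusted p of 0.00646 and an adjusted p of 0.455 from limma.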

How the results depend on the processing

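The falls of *Upf3b* that passed did so under every alternative run, with log2 fold changes from -2.99 to -2.43 over both doses, -3.98 to -3.24 at 20 mg/kg, and -3.24 to -2.22 and -3.80 to -3.07 for the doses against DPBS. With 1 mouse left out they were -3.17 to -2.74, -4.23 to -3.65, -3.19 to -2.13 and -3.97 to -3.40. *Upf3b* at 10 mg/kg against Control-GalNAc-ASO passed in none. In comparisons with DPBS the DPBS-treated mice were not left out one by one. *Upf3a* passed in no comparison of groups, but its direction turned. It became -0.26 at 10 mg/kg against DPBS without replicate 3 (range -0.26 to 0.87) and -0.42 without the libraries under a median correlation of 0.75. It ranged from 0.25 to 1.53 at 10 mg/kg and from -1.02 to 0.10 at 20 mg/kg against Control-GalNAc-ASO, -0.998 to 0.055 against DPBS and -0.19 to 0.53 over both doses. For Control-GalNAc-ASO at 20 mg/kg against DPBS it was -0.071 with a pseudocount of 5 TPM, -0.38 with quantile normalisation, -0.22 without those libraries and -0.14 to 0.23 with 1 mouse left out. The treatment by sex difference of *Upf3b*, -0.04, turned to 0.11 with a pseudocount of 5 TPM, 0.070 with quantile normalisation and 0.66 without those libraries, and that of *Upf3a*, -0.15, to 0.77. None passed. The cause was not tested.

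The slope of *Upf3a* in the 21 mice passed in all alternatives but that without DPBS replicates 5 and 6 (0.52), which was chosen after seeing the data, as were the alternatives without libraries and without the 2 farthest mice. Genes called in those mice were 927, against 326 with ranks of *Upf3b*, 418 to 1015 with 1 DPBS-treated mouse left out, 593 without replicate 5, and 5 without both. In the 10 treated mice 4 genes were called, against 68 with a pseudocount of 5 TPM, 20 with quantile normalisation, 1 with reads as a covariate, 1 with ranks, 7 without the 2 farthest mice and 0 to 88 with 1 mouse left out. Centred on group means, *Upf3a* and *Upf3b* in the treated mice had r = 0.58 (p = 0.0771, permutation test) and rho = 0.70 (p = 0.0304), and with a pseudocount of 5 TPM r = 0.74 (p = 0.0231).

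Mice share replicate numbers. The deviations of same-numbered mice from their group means, not corrected for sex, correlated over 0.1 in 0 of 4 and 0 of 5 pairs against the controls. Between doses 2 of 4 pairs did. So few pairs cannot exclude a pairing, and the number was not used as one in the main fits. With a replicate block, *Upf3b* was -1.95 at 10 mg/kg, -3.87 at 20 mg/kg and -0.73 between doses, *Upf3a* was 0.80, -0.39 and 0.19, the last reversed, and genes called went from 27 to 1, 236 to 53 and 0 to 0. At 10 mg/kg the calls ranged over the settings from 1 to 73 and, with 1 mouse left out, from 2 to 431, at 20 mg/kg from 53 to 304 and from 70 to 270, and over both doses (592) from 360 to 674 and from 369 to 763. Against DPBS they were 23 to 62 at 10 mg/kg (34) and 56 to 163 at 20 mg/kg (103).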

Other observations

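Of the genes nearest to the paralogs on their chromosomes, 5 of 8 were tested over both doses and 1 passed, where 6.04% of all genes did. *Rpl39*, which encodes a ribosomal protein and lies 6276 bases from *Upf3b* on the same strand, had 136 ± 78.8 TPM (SD, n = 5) at 10 mg/kg and 158 ± 65.6 TPM (SD, n = 5) at 20 mg/kg of *Upf3b*-GalNAc-ASO, against 78.6 ± 26.4 TPM (SD, n = 4) and 74.7 ± 19.4 TPM (SD, n = 6) in the controls (limma, a log2 fold change of 0.89 with adjusted p = 0.0269 and a standard error of 0.25). The call was lost in 5 of 20 fits with 1 mouse left out. At neither dose alone did *Rpl39* pass against Control-GalNAc-ASO (limma, adjusted p = 0.371 at 10 mg/kg and 0.0808 at 20 mg/kg). With DPBS it was 116 ± 48.9 TPM (SD, n = 11). The log2 fold changes against DPBS were 0.19 (adjusted p = 0.890) at 10 mg/kg and 0.44 (adjusted p = 0.635) at 20 mg/kg.

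No annotated transcript other than that of *Upf3b* matched the ASO with 0 or 1 mismatch, and transcripts of 12 genes matched it with 2. Of these, 6 were tested in the same comparison, where 3.64% of all genes passed downwards and 2.4% upwards. *Hsd3b3*, a steroid dehydrogenase whose reads may be shared with close paralogs, fell by 1.81 in log2 units (limma, adjusted p = 0.000606, standard error 0.31) and *Abcc2*, a canalicular transporter, fell by 1.09 (standard error 0.32, adjusted p = 0.0436), a call lost in 12 of 20 fits with 1 mouse left out. *Zfp280d* rose by 2.99 (standard error 0.60, adjusted p = 0.00664). *Ilf2*, *Klhl5* and *Oscp1* did not pass. The genes with near matches were listed from the sequence search and are named outside the rule, after their values had been seen. Against DPBS, *Zfp280d* had log2 fold changes of 1.32 and 0.58 at 10 and 20 mg/kg and did not pass. *Abcc2* was at -0.009 and -1.31 against DPBS and did not pass either (adjusted p = 0.977 and 0.0781 from limma). *Hsd3b3* was at -1.34 at 10 mg/kg (adjusted p = 0.119) and passed only at 20 mg/kg, at -2.43 (adjusted p = 0.000357).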
